A study of Homo sapiens with 6 samples.

Results

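The aldo-keto reductases of the AKR1B and AKR1C subfamilies are described here in cells that home to bone, derived from MDA-MB-231, a triple-negative breast cancer line of human origin, at 3 flow rates. The members are the 6 genes AKR1B1, AKR1B10, AKR1C1, AKR1C2, AKR1C3 and AKR1C4, taken by gene symbol from a deposited count table of 60591 genes. They were chosen by their family and by the flow response of their counts per gene in these same libraries, so their own values and differences are a description and support nothing beyond themselves. The 3 groups were static cells (0 mL/min), cells under low flow (1 mL/min) and cells under high flow (15 mL/min), with 2 poly(A) RNA libraries each. All groups were the same bone-homing variant, without a stated drug or genetic change. The study used flow to imitate the movement of fluid in mechanically loaded bone.

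Aldo-keto reductases are soluble enzymes that use NADPH to turn carbonyl groups into alcohols. AKR1B1 is aldose reductase, which makes sorbitol from glucose in the polyol pathway, and AKR1B10 reduces retinal and reactive aldehydes. The AKR1C enzymes act on steroid hormones and prostaglandins: AKR1C1 inactivates progesterone, AKR1C2 inactivates dihydrotestosterone, AKR1C3 makes testosterone and prostaglandin F, and AKR1C4 is a liver enzyme of bile acid synthesis. Several AKR1B and AKR1C genes are known targets of NRF2, the transcription factor of the response to oxidants and electrophiles.

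In GENCODE 29 on GRCh38 the AKR1C genes follow one another on chromosome 10, with AKR1C1 at chr10:4963253-4983283 on the plus strand and AKR1C2 at chr10:4987400-5018031 on the minus strand. AKR1C3 follows at chr10:5035354-5107686 and AKR1C4 at chr10:5195462-5218949, both on the plus strand. AKR1B1 lies at chr7:134442350-134459284 on the minus strand and AKR1B10 at chr7:134527592-134541408 on the plus strand. All are protein-coding genes.

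The AKR1C genes are close copies, which bears on how far their counts can be separated. The coding sequences of AKR1C1 and AKR1C2 were 98% identical, with 19 differences, and their longest identical stretch was 186 bases. AKR1C3 was 91.4% identical to AKR1C1 and AKR1C4 88.5%, whereas AKR1B1 and AKR1B10 were 75.8% identical to each other. The share of 50-base windows of the annotated transcripts found in another member was 52.2% for AKR1C2 and 28.6% for AKR1C1. It was 12.1% for AKR1C3, 8.21% for AKR1C4 and 0% for both AKR1B genes. Over any other annotated gene, pseudogenes included, the share was 17.4% for AKR1B10 and 4.78% for AKR1B1. For AKR1C2, AKR1C1, AKR1C3 and AKR1C4 it was 52.2%, 28.7%, 12.1% and 11.9%. The AKR1B counts are thus not free of shared sequence either. No source used here says how reads that match several places were treated, so the AKR1C1 and AKR1C2 counts are uncertain relative to each other. Coding positions 103 to 162 of the 4 AKR1C genes, from GENCODE 29 and counted from the first coding base, are shown. They were picked as the 60 bases with the most differences between AKR1C1 and AKR1C2, so they are not typical of the coding sequence. Capitals mark the positions at which the genes are not all alike.
AKR1C1: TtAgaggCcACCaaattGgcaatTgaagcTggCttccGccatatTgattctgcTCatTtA
AKR1C2: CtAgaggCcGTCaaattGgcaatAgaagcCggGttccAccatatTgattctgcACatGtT
AKR1C3: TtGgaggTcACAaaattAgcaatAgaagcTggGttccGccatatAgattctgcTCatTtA
AKR1C4: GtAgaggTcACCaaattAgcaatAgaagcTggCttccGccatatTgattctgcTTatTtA
Over these 60 bases AKR1C2 differed from AKR1C1 at 10 positions, AKR1C3 at 7 and AKR1C4 at 5.

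The sequences just before the transcript starts are shown for the genes whose levels are compared below. Each window holds the 250 bases before the start of a RefSeq transcript on GRCh38.p14, read along the gene's strand: chr10:4963165-4963414 (plus) for AKR1C1, chr10:5003858-5004107 (minus) for AKR1C2, chr10:5048531-5048780 (plus) for AKR1C3 and chr7:134459101-134459350 (minus) for AKR1B1. The RefSeq starts of the AKR1C genes lie inside the GENCODE spans above. Capitals mark a run of 12 bases that the 3 AKR1C windows share.
AKR1C1: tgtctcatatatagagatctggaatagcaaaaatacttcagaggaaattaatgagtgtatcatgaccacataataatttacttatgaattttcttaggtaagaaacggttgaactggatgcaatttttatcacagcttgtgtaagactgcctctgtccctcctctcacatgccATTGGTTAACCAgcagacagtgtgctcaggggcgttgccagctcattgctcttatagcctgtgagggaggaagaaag
AKR1C2: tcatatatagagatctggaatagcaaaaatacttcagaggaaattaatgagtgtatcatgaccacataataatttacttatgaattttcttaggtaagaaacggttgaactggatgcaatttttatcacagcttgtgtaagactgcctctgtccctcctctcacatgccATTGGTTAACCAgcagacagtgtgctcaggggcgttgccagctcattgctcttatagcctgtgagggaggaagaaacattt
AKR1C3: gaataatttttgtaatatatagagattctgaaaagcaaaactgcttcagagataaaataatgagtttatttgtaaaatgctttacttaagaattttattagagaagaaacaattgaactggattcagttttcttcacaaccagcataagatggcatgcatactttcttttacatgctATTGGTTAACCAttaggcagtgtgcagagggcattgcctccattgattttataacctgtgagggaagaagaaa
AKR1B1: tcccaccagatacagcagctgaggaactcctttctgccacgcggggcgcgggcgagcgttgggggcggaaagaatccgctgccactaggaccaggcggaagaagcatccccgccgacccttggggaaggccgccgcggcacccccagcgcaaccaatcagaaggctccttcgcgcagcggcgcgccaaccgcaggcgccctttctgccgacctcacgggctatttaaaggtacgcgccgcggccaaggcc
The shared run began 77 bases before the start in AKR1C1, 81 in AKR1C2 and 73 in AKR1C3. The AKR1C1 and AKR1C2 windows were 96.5% identical, AKR1C1 and AKR1C3 were 70.7% identical, and the AKR1B1 window shared no such run. GC content was 40.8%, 40% and 32% in the AKR1C1, AKR1C2 and AKR1C3 windows, and 68% in the AKR1B1 window. The antioxidant response element core (TGACNNNGC), the AP-1 motif (TGANTCA) and the core of the NFAT5 tonicity element (TGGAAA) were searched on both strands, and the first and second can match the same bases. No printed window held any of them, while 10.9%, 6.57% and 18% of 35116 RefSeq promoter windows of this length held each, in that order. These letters are absent from these windows only, and nothing about the factors follows from that.

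The static libraries were the shallowest, with 17822642 and 23544307 counts, and the flow libraries held 43965176 to 53279537. Replicates are numbered in the labels, but separate cultures are not stated, and all p-values therefore reflect only how these libraries varied, which may be technical. By the names of the columns, static and low flow shared a sequencing lane number and high flow carried another. The high flow names also had another form and a mark of sorted alignments. Lane, and any difference in run or processing, therefore cannot be told apart from high flow. The labels call the cells endothelial cancer cells. Of 8 endothelial markers 4 passed 1 CPM, the unit of counts scaled to library size: the defining markers VWF, CDH5 and CLDN5 stayed at or below 0.221, 0.0869 and 0.0234 CPM, while PECAM1 ran from 8.32 to 14.1 and ESAM from 24.3 to 37.5. Of 8 MDA-MB-231 markers 7 averaged over 1 CPM, with a summed level of 6597 to 8345 CPM over the 8 genes. VIM, at 3618 to 5031 CPM, made up much of that sum, and CD44 and AXL were also abundant. SPARC, on the same list, was low at 0.717 to 1.24 CPM. The near absence of VWF, CDH5 and CLDN5 goes against an endothelial label. The summed endothelial level was 43.7 to 56.7 CPM in static, 54.9 to 59.6 in low flow and 60.3 to 60.9 in high flow libraries, and PECAM1 was called higher at both flow rates and KDR lower under high flow. The summed level of 9 luminal epithelial markers was 372 to 410, 454 to 469 and 476 to 525 CPM in the same order. Most of it came from KRT8, at 127 to 190 CPM, and KRT18, at 164 to 237. KRT18 was called higher at both flow rates, and KRT8 and ERBB2 under high flow. PGR was at 0, CDH1 stayed at or below 0.0563 CPM, and ESR1 ran from 0.0878 to 0.391. The part of these endothelial and luminal differences in the results was not tested.

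AKR1B1 was the most abundant member and AKR1C3 the next, on the TPM scale, which divides counts by gene length before scaling to the library. AKR1B1 averaged 73.3 ± 20.4 TPM in static, 82.6 ± 1.66 in low flow and 80.6 ± 8.33 in high flow cells (SD, n = 2 each). AKR1C3 averaged 8.59, 16 and 13.9 TPM in the same order of groups, and AKR1C1 0.879, 1.65 and 1.54 TPM. This order of the 3 genes was the same in every library and with the longest transcript as length. The size of the gaps depends on the length used. AKR1C1 was divided by 8765 bases and AKR1C3 by 4532, while the median lengths of their coding transcripts were 858 and 1405. In CPM, counts scaled to library size only, AKR1C3 averaged 14.1 and AKR1C1 2.83 in static cells. AKR1B10, AKR1C2 and AKR1C4 averaged at most 0.302, 0.195 and 0.0331 TPM in any group, and at that depth their order was not resolved.

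**Figure D1:**
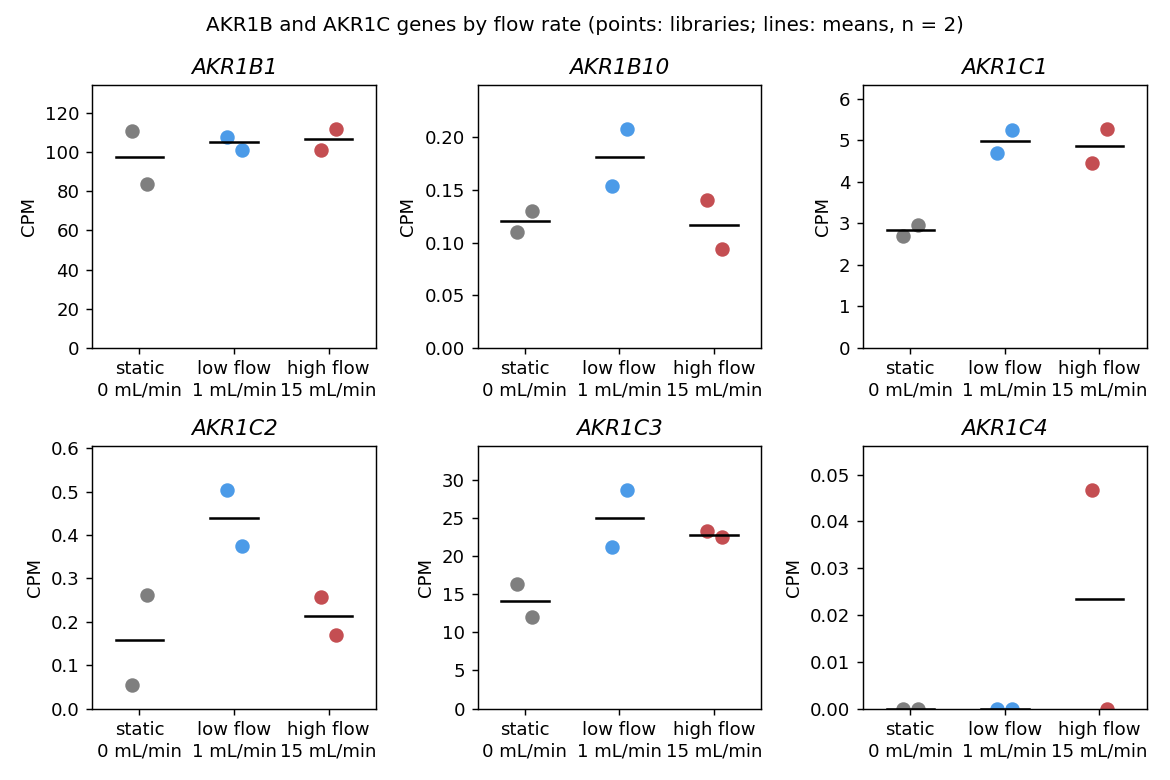
CPM (y axes, each from 0 with its own scale) of the 6 genes in static, low flow and high flow libraries; points are libraries and lines are means of 2. AKR1C1 and AKR1C3 were higher in all 4 flow libraries than in both static libraries, AKR1B1 overlapped between groups, and AKR1B10, AKR1C2 and AKR1C4 stayed below 0.6 CPM.

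AKR1C3 was higher in flow than in static cells at both flow rates. This enzyme makes testosterone from androstenedione and prostaglandin F from prostaglandin precursors. AKR1C3 had 16.3 and 12 CPM in static, 21.2 and 28.7 CPM in low flow and 23.2 and 22.5 CPM in high flow libraries. Every flow library lay above both static libraries, and the low flow and high flow libraries overlapped. The log2 fold change was 0.83 (SE 0.16) for low flow against static, a 1.78-fold higher level, and 0.70 (SE 0.16) for high flow against static, or 1.63-fold. For high flow against low flow it was -0.13 (SE 0.15). With offsets for GC content and length the 3 values were 0.94, 0.93 and -0.01, in the same order of comparisons.

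AKR1C1, which inactivates progesterone, was higher by a like amount from a lower level. It had 2.7 and 2.96 CPM in static, 4.7 and 5.26 CPM in low flow and 4.45 and 5.28 CPM in high flow libraries. Again the flow libraries all lay above the static ones, and the flow rates overlapped. The log2 fold change was 0.81 (SE 0.20) for low flow against static (1.75-fold), 0.78 (SE 0.20) for high flow against static (1.72-fold) and -0.03 (SE 0.18) for high flow against low flow. These values rest on 49 and 68 counts in the static libraries, 214 and 253 in low flow and 190 and 281 in high flow. In bulk RNA, more cells with a transcript and more transcript per cell cannot be told apart.

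AKR1C2, which inactivates dihydrotestosterone, had counts of 1 and 6 in static, 23 and 18 in low flow and 11 and 9 in high flow libraries. As CPM these were 0.0551 and 0.261, 0.505 and 0.374, and 0.257 and 0.169. Both low flow libraries lay above all the others, and the high flow libraries lay between the 2 static ones. The log2 fold change was 1.37 (SE 0.66) for low flow against static, 0.32 (SE 0.72) for high flow against static and -1.05 (SE 0.53) for high flow against low flow, and none passed an adjusted p of 0.05. The gene was tested on at most 23 counts in a library, and 52.2% of its windows are shared with other members. For low flow against static the value was 0.74 without static replicate 1 and 2.93 without static replicate 2.

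AKR1C4 had no counts in static and low flow libraries and 2 and 0 counts in the high flow libraries. A count of 0 allows up to 0.165 CPM in the shallowest library and 0.0563 CPM in the deepest, by counting error alone. Of 7 hepatocyte markers 1, SERPINA1, averaged over 1 CPM, at 9.87 to 13.5, and it made up most of their summed level, which was 11.6 to 15.4 CPM in static, 11.7 to 12.2 in low flow and 12.4 to 13.9 in high flow libraries. ALB and TTR stayed at or below 0.241 and 0.0869 CPM, and HNF4A, at 0.166 to 1.38 CPM, was called lower under high flow. No difference in AKR1C4 was detectable at this depth.

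AKR1B1, aldose reductase, did not differ beyond its spread in any comparison. It had 111 and 83.8 CPM in static, 108 and 101 CPM in low flow and 101 and 112 CPM in high flow libraries. The low flow and high flow libraries all lay within or barely above the static range. Its log2 fold change was 0.11 (SE 0.12) for low flow against static, 0.13 (SE 0.12) for high flow against static and 0.03 (SE 0.12) for high flow against low flow. With 1929 to 5968 counts per library, it was the most deeply counted member.

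AKR1B10, which reduces retinal and aldehydes, had counts of 2 and 3 in static, 7 and 10 in low flow and 6 and 5 in high flow libraries. As CPM these were 0.11 and 0.13, 0.154 and 0.208, and 0.14 and 0.0939. Both low flow libraries lay above the others, but the gene did not pass the filter on low counts and was not tested.

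Of the 6 members, 4 passed that filter: AKR1B1, AKR1C1, AKR1C2 and AKR1C3. AKR1C1 and AKR1C3 passed an adjusted p of 0.05 in edgeR's quasi-likelihood test for low flow against static, where 6.74% of the 20676 genes tested did, 3.25% in the higher direction. The same 2 genes passed it for high flow against static, where 13.9% of all genes did, 7.49% in the higher direction. For high flow against low flow 0 members passed, by edgeR or by DESeq2, and 0 had an unadjusted p under 0.05, beside 0.334% of all genes called. Groups that do not overlap were common: 27.1% of all genes tested were higher without overlap for low flow against static, 29.9% were higher for high flow against static, and 21.5% were lower for high flow against low flow. Both comparisons share the static libraries, so neither supports the other.

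**Figure D2:**
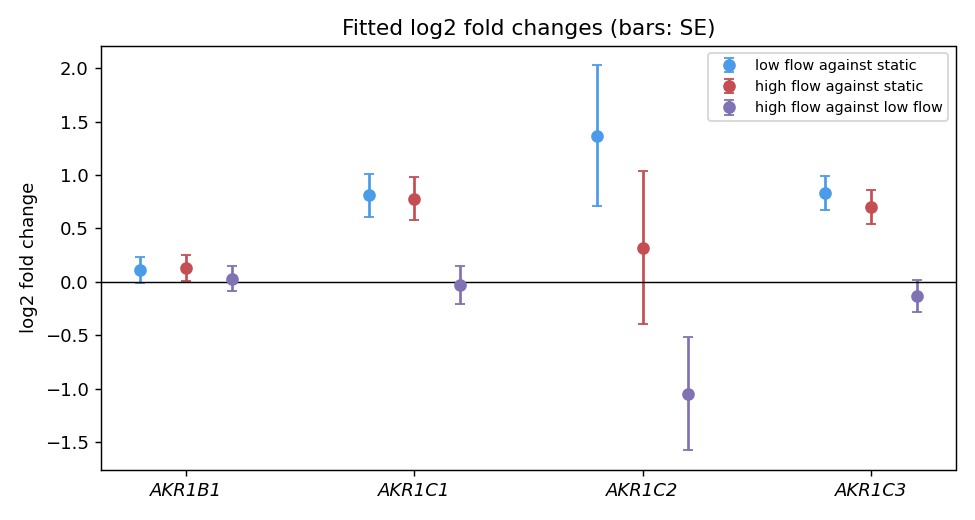
Fitted log2 fold changes (y axis) of the 4 members that passed the filter on low counts, in the 3 comparisons; bars are standard errors. AKR1C1 and AKR1C3 lay between 0.70 and 0.83 against static at both flow rates, AKR1B1 lay near 0, and AKR1C2 had the widest errors.

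Whether these calls held depended on which library was left out. Without static replicate 2 neither gene was called in either comparison, with log2 fold changes of 0.89 for AKR1C1 and 0.62 for AKR1C3 for low flow against static, and 0.85 and 0.50 for high flow against static. Without static replicate 1 AKR1C3 remained called at 1.06 and 0.93, and AKR1C1 was not called at 0.75 and 0.72. For high flow against static neither was called without high flow replicate 1 (0.90 for AKR1C1 and 0.68 for AKR1C3) or high flow replicate 2 (0.64 and 0.72). Without low flow replicate 2 the AKR1C1 call for low flow against static ended at 0.73, while that of AKR1C3 held at 0.60. The sign of both genes against static stayed positive in each of these fits. For low flow against static the AKR1C1 call also ended in a fit of only the 4 libraries compared, at 0.81.

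Adding the counts of the AKR1C genes removes the question of which copy a counted read was given to, but does not restore reads that may have been discarded. The sum was 19.02 and 15.21 CPM in static, 26.45 and 34.33 CPM in low flow and 27.99 and 27.9 CPM in high flow libraries, without overlap between flow and static. The log2 fold change of the sum was 0.83 (SE 0.138) for low flow against static and 0.71 (SE 0.139) for high flow against static. AKR1C3 made up 78.9% to 85.5% of AKR1C counts in the 6 libraries and AKR1C1 14.2% to 19.4%. The range of AKR1C3 shares in flow libraries, 80.3% to 83.6%, lay inside the static range.

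Ratios within a library do not depend on library scaling. AKR1C3 had 0.196 and 0.284 counts per AKR1B1 count in low flow libraries and 0.23 and 0.2 in high flow libraries, against 0.147 and 0.143 in static libraries. AKR1C1 had 0.0433 and 0.052 counts per AKR1B1 count under low flow and 0.044 and 0.0471 under high flow, against 0.0244 and 0.0353 in static cells. Both ratios were higher in every flow library than in every static one. The ratio of AKR1C1 to AKR1C3 counts was 0.221 and 0.183 under low flow and 0.191 and 0.235 under high flow, against 0.166 and 0.246 in static cells, and the groups overlapped.

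Genes around the clusters were compared within 500 kb, a distance chosen after the values were known. Of 10 other genes tested around the AKR1C cluster, NET1 was the only one called by edgeR, for high flow against static, where 13.9% of all genes were called. For low flow against static 0 of the 10 were called, beside 6.74% of all genes. NET1 had 328 and 300 CPM in high flow libraries, against 211 and 251 CPM in static libraries (log2 fold change 0.44, SE 0.11, edgeR adjusted p = 0.0138). That call ended without high flow replicate 1 (0.182), high flow replicate 2 (0.058) or static replicate 1 (0.108). AKR1E2, an aldo-keto reductase gene in the same region, had 2.15 and 2.14 CPM under low flow and 2.5 and 1.9 CPM under high flow, against 2.59 and 2.83 CPM in static cells, and it was not called. The noncoding LINC02561 had 0.681 and 0.769 CPM under low flow and 0.632 and 0.826 under high flow, against 0.276 and 0.348 in static cells. It was not called either, with log2 fold changes against static of 1.19 (SE 0.45) and 1.21 (SE 0.45). Of 6 other genes tested around AKR1B1, edgeR and DESeq2 called 0 in each comparison. Of these 6, 1, SLC35B4, had an unadjusted p under 0.05 by edgeR, for low flow against static. Among all genes edgeR called 6.74% for low flow against static, 13.9% for high flow against static and 0.334% for high flow against low flow. With so few genes, the counts around neither cluster can be told apart from those shares.

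**Figure D3:**
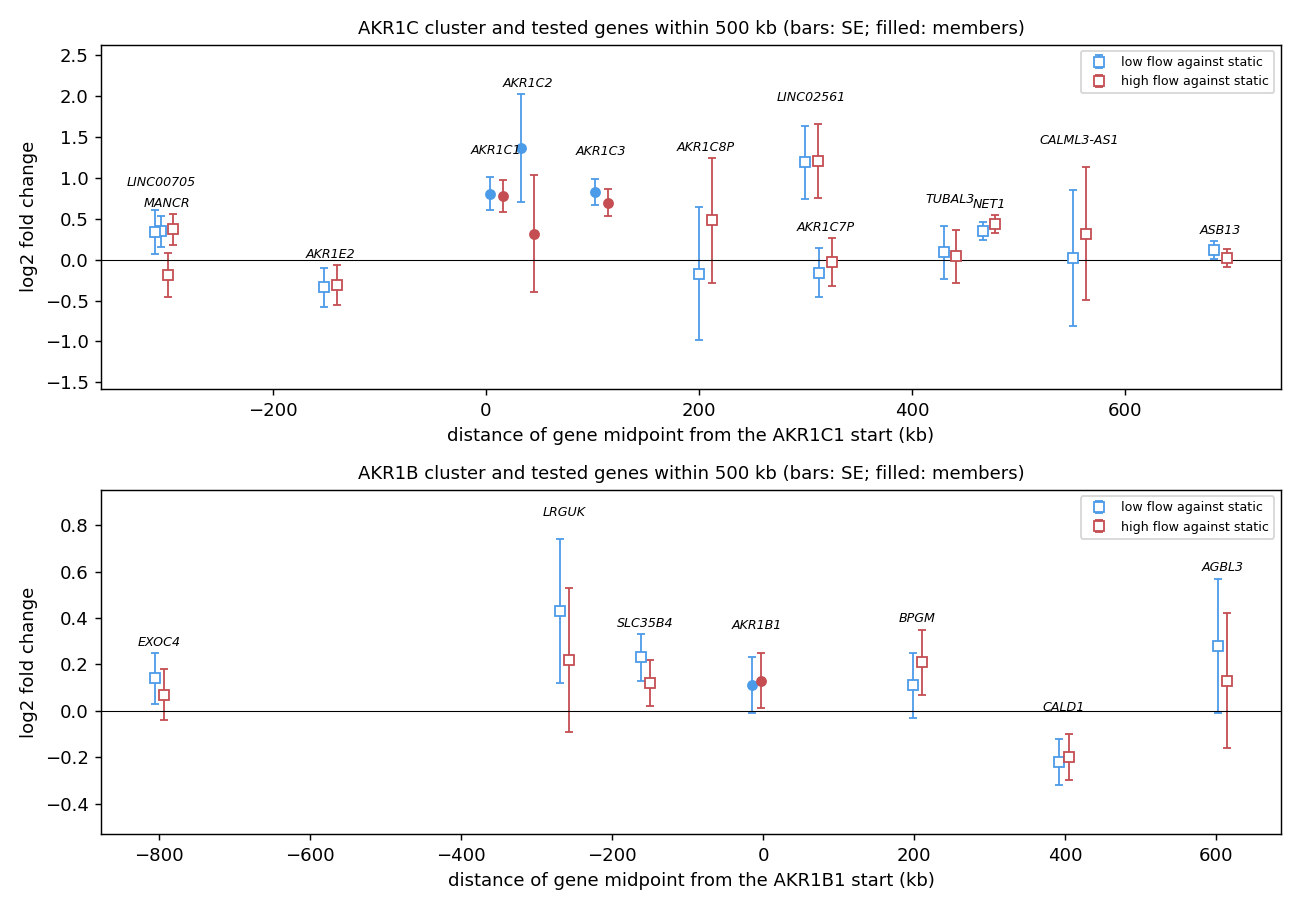
Log2 fold changes (y axis) of tested genes around the AKR1C cluster (top) and around AKR1B1 (bottom) by distance of the gene midpoint from the start of AKR1C1 or AKR1B1 in kb; low flow and high flow against static are offset sideways, bars are standard errors and filled points are members. AKR1C1 and AKR1C3 lay above 0.6 at both flow rates, and so did the uncalled LINC02561, at 1.19 and 1.21. NET1 lay at 0.35 and 0.44, and AKR1E2 lay below 0.

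The genes whose levels followed the members most closely were sought by the root mean square difference of log2 CPM, centred on each gene's mean, over the 6 libraries. The search covered the 12666 genes that averaged 4 CPM or more. For AKR1C3 these were AL035587.1 (0.0552), SHISAL1 (0.066), ABTB1 (0.0686) and the readthrough gene MIA-RAB4B (0.0747), where the median of all genes was 0.415. For AKR1C1 they were AC118281.1 (0.095), THBS3 (0.097), AC007406.5 (0.0982) and AHNAK (0.0991), where the median was 0.395. For AKR1B1 they were NAGLU, SLC35B1, B3GAT3 and GSTZ1, at 0.0385 to 0.0407, where the median was 0.195. AKR1C1 and AKR1C3 lay 0.202 apart, at rank 309 among the neighbours of AKR1C1 and rank 405 among those of AKR1C3. AKR1B1 lay 0.355 from AKR1C1 and 0.345 from AKR1C3.

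Of 12 other aldo-keto reductases 9 were tested, and edgeR and DESeq2 called 0 of them for low flow against static, with 0 at an unadjusted p under 0.05, and 0 for high flow against static, with 1, KCNAB3. Under high flow 1 of them was called higher by edgeR with only the 4 libraries compared, and without low flow replicate 1 or low flow replicate 2. The list's median log2 fold change was -0.17 for low flow against static and 0.21 for high flow against static, beside 0.01 and 0.00 for all genes. With 9 genes each median is the value of 1 thinly counted gene. For low flow it is AKR1C8P (SE 0.81, 2 to 26 counts), and for high flow AKR7A3 (SE 0.37, 12 to 44 counts). The medians therefore show no shift of the list. AKR1A1, aldehyde reductase, had 33.5 and 38.9 CPM under low flow and 34.3 and 37.9 CPM under high flow, against 34.6 and 31.1 CPM in static cells. Its groups overlapped.

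Of 8 genes that encode or regulate NRF2, 1 was called higher under low flow and another under high flow, or 12.5% each, beside 6.74% and 13.9% of all genes. NFE2L2, which encodes NRF2, had a log2 fold change of -0.09 for low flow against static (edgeR adjusted p = 0.637) and -0.18 for high flow against static (adjusted p = 0.214). KEAP1, which targets NRF2 for degradation, had 0.01 (adjusted p = 0.977) and 0.13 (adjusted p = 0.388), signs that turned with offsets for GC content and length. BACH1, a repressor of NRF2 target genes, rose under low flow (0.43, adjusted p = 0.0247). MAFK, a DNA-binding partner of both, rose under high flow (0.65, adjusted p = 0.0015). The BACH1 call ended in a fit of only the 4 libraries compared (adjusted p = 0.062) and without each library but low flow replicate 1 (adjusted p up to 0.356); the MAFK call ended without high flow replicate 1 (0.0605).

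Other NRF2 targets moved in both directions. Of 29 tested, 3 fell and 1 rose under low flow (list median -0.05 on the log2 scale), and 4 fell and 2 rose under high flow (list median -0.12). That is 13.8% and 20.7% of the list, beside 6.74% and 13.9% of all genes, of which 3.49% fell under low flow and 6.43% under high flow. Under high flow the balance turned without a filter on low counts, with 2 lower and 3 higher, and also without high flow replicate 1 or static replicate 2, each with 0 lower and 1 higher, and without high flow replicate 2, with 1 lower and 2 higher. NQO1, a quinone reductase, had 100 and 98.9 CPM in high flow libraries, against 137 and 143 CPM in static libraries, and fell by 0.49 on the log2 scale (edgeR adjusted p = 0.00695). Under low flow its log2 fold change was -0.35 (adjusted p = 0.0589). GCLM, the modifier subunit of the enzyme that starts glutathione synthesis, had 29.9 and 25.9 CPM under low flow and 24.8 and 29 CPM under high flow, against 34.4 and 39 CPM in static cells (adjusted p = 0.0498 and 0.0185). PGD, an NADPH-producing enzyme of the pentose phosphate pathway, fell by 0.35 under low flow and by 0.31 under high flow. CBR1, a carbonyl reductase, fell by 0.37 under low flow, and the cystine transporter SLC7A11 fell by 0.31 under high flow.

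HMOX1, heme oxygenase, had 3.93 and 4.18 CPM under low flow and 5.45 and 5.33 CPM under high flow, against 6.01 and 5.74 CPM in static cells. Neither difference passed (edgeR adjusted p = 0.0731 and 0.681), and neither did that of TXNRD1, thioredoxin reductase, at -0.22 and -0.23 (adjusted p = 0.214 and 0.149). ABCC3, an efflux transporter of conjugated compounds, had 69.8 and 69.8 CPM under low flow and 80.9 and 76.4 CPM under high flow, against 53.7 and 52.9 CPM in static cells (adjusted p = 0.0218 and 0.00133). ABCB6, a porphyrin transporter, rose by 0.61 under high flow (adjusted p = 0.00369). The count of NRF2 targets that fell was 0 for low flow against static when any library but low flow replicate 1 was left out (6 without that one), and 0 for high flow against static without static replicate 2 or high flow replicate 1, and 1 without high flow replicate 2. The calls of PGD, CBR1, SLC7A11 and GCLM each ended in at least 2 settings with all replicates of the groups compared, and those of NQO1 and ABCB6 only when a library was left out, while ABCC3 under high flow was called in every fit. Under low flow the ABCC3 call ended with the 4 libraries alone (adjusted p = 0.0531) and without low flow replicate 2, static replicate 1 or static replicate 2 (up to 0.13).

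**Figure D4:**
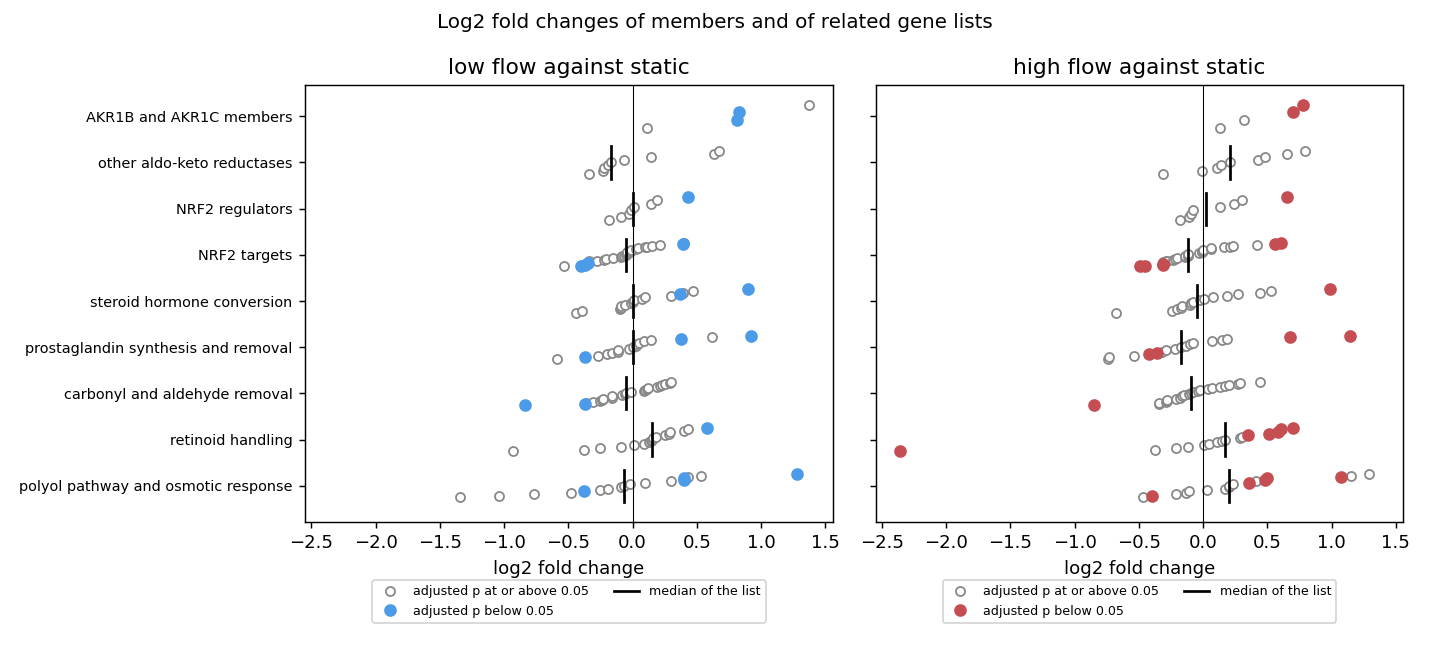
Log2 fold changes (x axis) against static for low flow (left) and high flow (right) of the 4 tested AKR1B and AKR1C genes and of each related gene list; filled points passed an adjusted p of 0.05, open points did not, and black lines are list medians, drawn for the related lists. The list medians lay between -0.17 and 0.21.

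Of 27 listed steroid conversion genes outside the aldo-keto reductases 16 were tested, and 2 rose under low flow and 1 under high flow. These shares, 12.5% and 6.25%, stand beside 6.74% and 13.9% of all genes. HSD3B7, an enzyme of bile acid synthesis, had 7.42 and 9.37 CPM under low flow and 10.1 and 7.83 CPM under high flow, against 4.96 and 4.09 CPM in static cells. Its log2 fold change was 0.90 (edgeR adjusted p = 0.0109) and 0.99 (adjusted p = 0.00312). HSD17B11, which oxidises steroid alcohols, rose by 0.37 under low flow (adjusted p = 0.046). Without static replicate 2 the count was 0 in both comparisons, it was 0 for low flow against static without low flow replicate 2, and it was 0 for high flow against static without high flow replicate 1. For low flow against static it was 1 without static replicate 1 or either high flow library. The HSD17B11 call also ended with the 4 libraries alone (adjusted p = 0.081), and under high flow 1 steroid gene was called lower with the 4 libraries alone or without static replicate 1, low flow replicate 1 or low flow replicate 2.

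Prostaglandin genes moved in both directions. Of 17 tested 2 rose and 1 fell under low flow, and 2 rose and 2 fell under high flow, which is 17.6% and 23.5% of the list beside 6.74% and 13.9% of all genes. PTGS2, the inducible cyclooxygenase upstream of AKR1C3 in prostaglandin synthesis, had 392 and 387 CPM under low flow and 318 and 342 CPM under high flow, against 190 and 222 CPM in static cells. Its log2 fold change was 0.92 (edgeR adjusted p = 0.0001) and 0.68 (adjusted p = 0.000564), and both calls held in every fit tried, with an adjusted p of at most 0.0195. PTGES, a prostaglandin E synthase, rose by 0.38 under low flow (adjusted p = 0.0487), and PTGER4, a prostaglandin E receptor, rose by 1.14 under high flow (adjusted p = 0.00419).

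PTGR2, which reduces prostaglandin metabolites, fell by 0.36 under high flow (edgeR adjusted p = 0.028), and PLA2G4A, the phospholipase that releases arachidonic acid, fell by 0.42 (adjusted p = 0.0463). With offsets for GC content and length both calls ended (adjusted p up to 0.227 for PTGR2 and 0.306 for PLA2G4A over the settings tried). The PLA2G4A call also ended with DESeq2 (adjusted p = 0.0533) and in edgeR without a filter on low counts (adjusted p = 0.0505). The PTGES call ended with RLE size factors or with the 4 libraries alone (adjusted p up to 0.0969), and the calls of PTGES, PTGR2 and PLA2G4A each ended when any of 4 libraries was left out. That of PTGER4 ended without static replicate 1 or static replicate 2 (adjusted p up to 0.125).

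Among other enzymes that remove carbonyls and aldehydes, 2 of 23 tested fell under low flow and 1 under high flow, and 0 rose. These shares, 8.7% and 4.35%, stand beside 6.74% and 13.9% of all genes. DHRS2, a short-chain dicarbonyl reductase, had 5.66 and 4.01 CPM under low flow and 4.87 and 4.75 CPM under high flow, against 8.71 and 8.65 CPM in static cells. It fell by 0.84 under low flow (edgeR adjusted p = 0.0124) and by 0.85 under high flow (adjusted p = 0.00601). Its calls ended without static replicate 2 (adjusted p up to 0.123 over the libraries left out), and without either high flow library for high flow or without low flow replicate 2 or static replicate 1 for low flow. The other gene called under low flow was CBR1, which is also on the NRF2 and prostaglandin lists.

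Retinoid genes were listed because AKR1B10 reduces retinal. Of 17 tested 1 rose under low flow, and 5 rose and 1 fell under high flow, which is 5.88% and 35.3% of the list beside 6.74% and 13.9% of all genes. RXRA, the partner of the retinoic acid receptors, had 86.7 and 102 CPM under low flow and 110 and 95.9 CPM under high flow, against 64.4 and 61.9 CPM in static cells. Its log2 fold change was 0.58 (edgeR adjusted p = 0.00589) and 0.70 (adjusted p = 0.000613). RARA, a retinoic acid receptor, rose by 0.61 (adjusted p = 0.00169) and CYP26B1, which degrades retinoic acid, by 0.51 (adjusted p = 0.0133), both under high flow. RDH13 rose by 0.58 and RXRB by 0.35 under high flow. The RXRA call under low flow ended without static replicate 2 (adjusted p = 0.0798), and the RARA call ended without high flow replicate 1 (0.0712).

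RDH12, a retinal reductase, had 0.0936 and 0.0939 CPM in high flow libraries, against 0.717 and 0.304 CPM in static libraries, and fell (log2 fold change -2.36, edgeR adjusted p = 0.037). That difference rests on few counts and ended with offsets for GC content and length (adjusted p up to 0.0578 over the settings tried). So did the calls of CYP26B1 (up to 0.119) and RDH13 (up to 0.114). The number of retinoid genes that rose under high flow was 2 with those offsets, 1 without high flow replicate 1, and 2 without high flow replicate 2 or static replicate 2. The difference between high flow and low flow was called for 0 of the 17 genes by edgeR, with 2 at an unadjusted p under 0.05.

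The polyol and osmotic response list includes the gene after AKR1B1 in the polyol pathway. SORD, sorbitol dehydrogenase, had 33.1 and 37.7 CPM under low flow and 32.8 and 41 CPM under high flow, against 43.7 and 37.1 CPM in static cells, and the groups overlapped. Its log2 fold change was -0.19 (edgeR adjusted p = 0.388) and -0.13 (adjusted p = 0.538). Of 17 genes tested 3 rose and 1 fell under low flow, and 4 rose and 1 fell under high flow, which is 23.5% and 29.4% of the list beside 6.74% and 13.9% of all genes. AQP1, a water channel, had 2.17 and 2.04 CPM under low flow and 1.94 and 1.69 CPM under high flow, against 1.21 and 0.565 CPM in static cells (adjusted p = 0.0252 and 0.0371). The taurine transporter SLC6A6 and the myo-inositol transporter SLC5A3, both carriers of osmolytes, each rose by 0.40 under low flow, and by 0.50 and 0.48 under high flow. SGK1, a kinase induced by osmotic stress, rose by 0.36 under high flow (adjusted p = 0.0441), and TSC22D2 fell by 0.38 under low flow and 0.40 under high flow.

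None of these osmolyte carriers or AQP1 was called without static replicate 2, and the 3 calls under low flow also ended with the 4 libraries alone. Under low flow the number of genes on that list that rose was 0 without either high flow library and 1 without low flow replicate 2 or static replicate 1. The SLC5A3 call under low flow also ended with offsets for GC content and length (edgeR adjusted p = 0.111). Under high flow the SLC6A6 and SLC5A3 calls also ended without high flow replicate 1. With a library left out, their log2 fold changes for high flow against static ran from 0.40 to 0.59 for SLC6A6 and from 0.43 to 0.53 for SLC5A3. The SGK1 call ended without either static or either high flow library, with log2 fold changes of 0.28 to 0.43 over the libraries left out. Both TSC22D2 calls ended without either static library and without either high flow library. The TSC22D2 call under low flow also ended without low flow replicate 2 and with the 4 libraries alone. Its log2 fold change with a library left out ran from -0.43 to -0.33 under low flow and from -0.42 to -0.37 under high flow.

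The AQP1 call under high flow also ended with DESeq2 (adjusted p = 0.0713), with offsets for GC content and length (0.074), and without either high flow library. Its log2 fold change for high flow against static was 1.07 with all libraries, 0.58 without static replicate 2 and 1.68 without static replicate 1. For low flow against static it was 1.28 with all libraries, 0.80 without static replicate 2 and 1.89 without static replicate 1.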

How the data were processed

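Poly(A) RNA from TRIzol lysates was sequenced with the KAPA stranded kit, per the labels' protocols. The authors deposited raw counts per gene symbol; STAR, featureCounts and hg38 appear in the submitters' processing notes, and the annotation they used is not given here. The deposited counts were tested with edgeR 4.0.16 (R 4.3.3): TMM scaling, the expression filter with a minimum count of 10 (20676 of 60591 genes), and robust quasi-likelihood tests on all 6 libraries with 3 residual degrees of freedom. Tests were two-sided, with Benjamini-Hochberg adjustment over all genes tested and a threshold of 0.05. CPM were computed with TMM-scaled library sizes, and counts set the precision: intervals and floors of 3 counts cover counting error only.

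TPM used union exonic lengths of GENCODE 29, in which 55101 symbols matched 1 gene. Promoter windows came from RefSeq on GRCh38.p14, and AKR1B10 has no window here. The edgeR step was tested on simulated counts with 200 changed genes per comparison. It recovered 65.7% to 71.9% of 1.5-fold, 78.9% to 92.1% of 2-fold and 98.6% to 100% of 3-fold changes. It also called 12, 15 and 12 unchanged genes for low flow against static, high flow against static and high flow against low flow. The simulated spread followed the trend over all genes, not that of each gene. Replicates were not copies, with a chi-square per degree of freedom of 13.3 to 33.2 between the libraries of a group.

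The members and the gene lists were chosen with earlier results of these data known. Named list genes were, per list and comparison, up to 4 called in each direction by p, and 9 fixed genes whatever their p: NFE2L2, KEAP1, NQO1, HMOX1, GCLM, TXNRD1, AKR1A1, PTGS2 and SORD. NET1, AKR1E2, LINC02561, KCNAB3, RXRB and SLC35B4 were named after their values were seen. Alternatives were RLE size factors, DESeq2 1.42.0, no filter, only the 4 libraries of a comparison, a replicate block, offsets for GC content and length, both together, leaving out each library, and summing the AKR1C or AKR1B counts.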

Additional observations from a re-analysis of the deposited data

How the results depend on the processing

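The count of AKR1B and AKR1C genes called was 2 for low flow against static and 2 for high flow against static. It became 1 for low flow against static with only the 4 libraries compared, and 1 with the replicate block and offsets for GC content and length together; the smaller fits have fewer residual degrees of freedom. With one library left out it ran from 0 to 2 in both comparisons. With the replicate block alone the counts were 2 and 2. Replicate numbers did not pair the samples: correlations of the replicate differences between groups were -0.249, -0.0116 and 0.105 over 15524 genes. Of 28 other values for the 4 member calls 26 kept direction and call and 2 lost the call; of 24 with a library left out 11 lost it and 0 changed sign. The summed AKR1C counts are mostly AKR1C3 and give no value for AKR1C2.

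Some uncalled values for high flow against low flow changed sign with the offsets, alone and with the block: AKR1B1 to -0.01352 and -0.01044, AKR1C1 to 0.03989 and 0.038, GCLM to 0.09778 and 0.09832, KEAP1 to -0.02364 and -0.02427, and TXNRD1 to 0.03236 and 0.03653. KEAP1 also turned for high flow against static (-0.07057 and -0.07093) and for low flow against static (-0.04693 and -0.04666), and AKR1A1 for high flow against low flow without a filter (0.003374). The cause was not tested; log2 fold changes rose with GC content over 19604 genes, with a Spearman correlation of 0.0597 for low flow against static, 0.31 for high flow against static and 0.45 for high flow against low flow.

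With one library left out, AKR1B1 ran from -0.07803 to 0.3213 for low flow against static, -0.05225 to 0.3469 for high flow against static and -0.05657 to 0.09856 for high flow against low flow. AKR1C2 ran from 0.7439 to 2.93 for low flow against static and from -0.306 to 1.881 for high flow against static, and SORD ran from -0.3043 to 0.02909 for high flow against static, and KEAP1 from -0.05074 to 0.07119 for low flow against static. For high flow against low flow the ranges were -0.1685 to 0.08483 for AKR1C1, -0.3291 to 0.1056 for AKR1C3, -0.1085 to 0.1111 for AKR1A1, -0.1737 to 0.0596 for GCLM, -0.2991 to 0.03395 for NQO1, -0.1168 to 0.2143 for SORD and -0.1455 to 0.1374 for TXNRD1.

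Of 39 calls of list genes and NET1, 51 of 271 values lost the call with all libraries of the comparison, 116 of 234 lost it with a library left out, and 0 changed sign. Over settings with all libraries, NRF2 targets called lower numbered 0 (the 4 libraries alone, or the block) to 6 (DESeq2) instead of 3 under low flow, and 2 to 6 instead of 4 under high flow. Those called higher numbered 0 to 2 instead of 1 under low flow and 2 or 3 under high flow. NRF2 regulators called higher numbered 0 or 1 under low flow and 1 or 2 under high flow, where 0 or 1 was lower. Steroid genes called higher numbered 1 to 3 instead of 2 and 1 or 2 instead of 1, with 0 or 1 lower under high flow; the block ended the HSD17B11 call (0.0612) and the SGK1 call (0.0549). Other aldo-keto reductases called higher under high flow numbered 0 or 1. Prostaglandin genes called lower numbered 0 or 1 and 0 to 4 instead of 2, and those higher under low flow 1 to 3 instead of 2. Carbonyl genes called lower numbered 1 to 3 at both flow rates, retinoid genes called higher 1 to 3 and 2 to 6, and polyol genes called higher under low flow 0 to 5 instead of 3. AKR1C2, AKR1B10 and AKR1C4 had at most 23 counts in a library.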
